A study of Mus musculus with 12 samples.

Results

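The comparison described here asks what changed in colon tumours when the transplanted bone marrow lacked the IL-33 receptor ST2 and the host lacked it already. It was made over all genes between 6 of the 12 libraries of the series, chosen by their labels: 3 tumours from St2-/- hosts that received St2-/- marrow (St2-/- => St2-/-) and 3 from St2-/- hosts that received wild-type marrow (WT => St2-/-). All mice were Balb/c, were irradiated with 2 doses of 5 Gy, and were left for 8 weeks after transplantation. They then received 6 weekly injections of the colon carcinogen azoxymethane (AOM) at 10 mg/kg. Tumours were collected when 13 or 14 weeks had passed since the final dose and sequenced as single-end reads of 50 bases. Since every host in the comparison was St2-/-, ST2 could come only from donor cells in WT => St2-/- tumours, and all cells of the St2-/- => St2-/- mice carried the St2-/- genotype. The share of host blood cells that survived irradiation is not given in the labels, and the mice's age is not given either. Reads of the bulk tumours do not separate donor cells from host cells. The labels call the 3 libraries of a group biological replicates.

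IL-33 is a cytokine of the interleukin-1 family that is held in the nuclei of epithelial, endothelial and stromal cells and is released on damage. Its receptor ST2, encoded by Il1rl1, pairs with Il1rap and signals through Myd88 and NF-kB. In the gut the receptor is best known on cells of marrow origin, namely mast cells, group 2 innate lymphoid cells and a subset of regulatory T cells, and its activation there leads to release of type 2 cytokines such as IL-13.

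Gene counts of the 6 libraries were between 10293818 and 12332133 reads, and the other 6 libraries fell in the same range up to 12962496. Levels are given as CPM, a gene's reads scaled to the library's total so that libraries can be compared. The tumours had the genes of colonic epithelium, with 263 to 743 CPM of the villus protein gene Vil1 and 318 to 429 CPM of Hoxb13, a gene of the distal colon. One WT => St2-/- library, replicate 3, came from a female and all others from males. Of the WT => St2-/- tumours 1 was taken at 14 weeks and 2 at 13 weeks, against 2 and 1 in the St2-/- => St2-/- group. WT => St2-/- replicates 2 and 3 stood apart by their smooth muscle genes, as described further on. The 6 libraries did not separate by group along the first principal component, which held 45.1% of the variance of the 500 most variable genes. Distances between libraries, as the root mean square difference in log2 CPM, had a median of 0.75 between the groups, 0.88 within WT => St2-/- and 0.56 within St2-/- => St2-/-.

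Counts of Il1rl1 did not separate the donors. They were 11.9, 25.04 and 7.30 CPM in WT => St2-/- replicates 1, 2 and 3 and 13.4, 7.91 and 10.7 CPM in St2-/- => St2-/-. The groups overlapped, and the log2 fold change was -0.47 (SE 0.70, 95% interval -2.0 to 1.07, edgeR adjusted p = 0.996). In WT hosts the same gene stood at 36.5 to 275 CPM over 6 libraries. The deposited counts are per gene and the labels do not say which exons the St2-/- allele lacks, so reads on Il1rl1 in St2-/- => St2-/- tumours are not a check of the donor genotype. Il33 itself was at 31.0, 20.2 and 25.1 CPM with wild-type marrow and 42.6, 54.9 and 50.8 CPM with St2-/- marrow. These ranges did not overlap, but the log2 fold change of 0.96 (SE 0.67) had a 95% interval from -0.51 to 2.43 (edgeR adjusted p = 0.995).

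Over 15060 tested genes edgeR's quasi-likelihood test called 0 genes at an adjusted p under 0.05, which is 0% of the genes, and the lowest adjusted p was 0.256. Without adjustment 610 genes had a p under 0.05, fewer than the 753 that would be expected if no gene differed. Of these, 262 (1.74%) were higher with St2-/- marrow and 348 (2.31%) were lower. The libraries of the groups did not overlap in 689 genes that were higher (4.58%) and 637 that were lower (4.23%). Lack of overlap was also a condition for naming genes by lowest p, and for those genes it is no added support. The other tools tried on the same counts did make calls. DESeq2 called 17 genes, 0.12% of those it adjusted, of which 12 were lower and 5 higher, and limma-voom with quality weights called 4, or 0.0266%, all of them also called by DESeq2. The text below writes "lower" and "higher" for these estimates, and every adjusted p is edgeR's unless another tool is named.

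**Figure D1:**
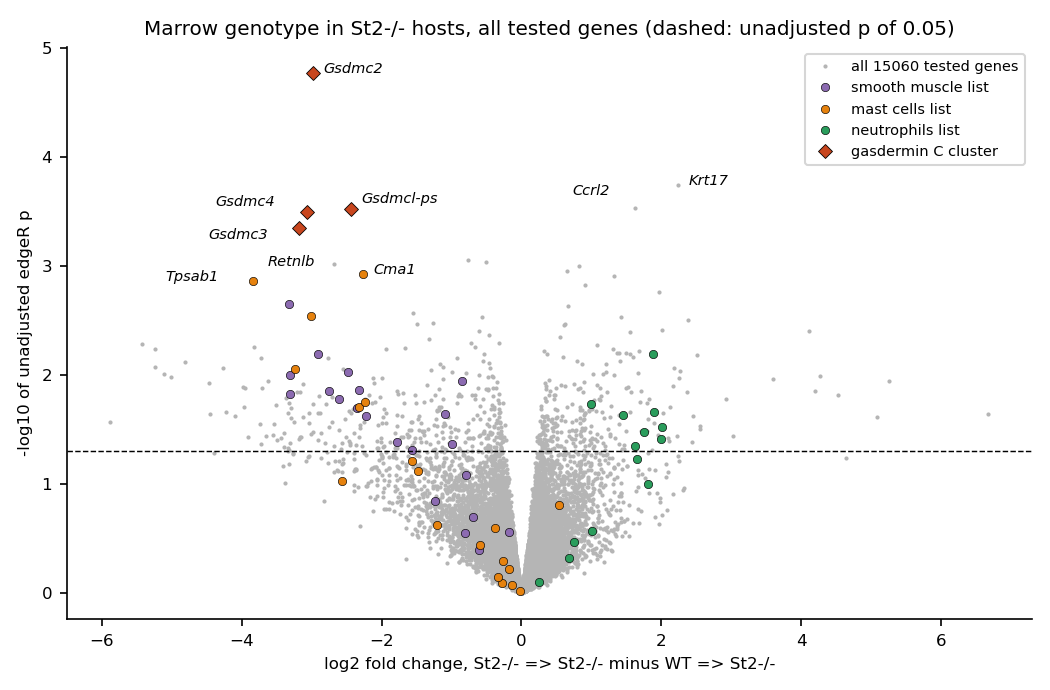
Each point is 1 of the 15060 tested genes: the horizontal axis is the log2 fold change of St2-/- => St2-/- against WT => St2-/- tumours and the vertical axis is -log10 of the unadjusted edgeR p. The 4 gasdermin C cluster genes lie between -3.17 and -2.44, the smooth muscle and mast cell genes lie mostly left of 0, and the neutrophil genes lie right of 0.

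The lowest p-value of the comparison lay in the gasdermin C cluster, whose genes were lower with St2-/- marrow. Gasdermins are proteins whose released amino-terminal part can form pores in membranes, and the Gsdmc genes of the mouse are expressed in intestinal epithelium. The cluster lies on chromosome 15 (GRCm38, GENCODE M21), with Gsdmc2 at chr15:63824346-63845177, Gsdmc3 at chr15:63857724-63878558 and Gsdmc4 at chr15:63891264-63912297, all on the minus strand, and the transcribed pseudogene Gsdmcl-ps at chr15:63914448-63925666 on the plus strand. The copies are close to each other, so 2 stretches of their coding sequence are shown here before their values. The first 60 coding bases are the same in Gsdmc2, Gsdmc3 and Gsdmc4, 5′ to 3′ from the start codon in lower case.
Gsdmc2, Gsdmc3 and Gsdmc4: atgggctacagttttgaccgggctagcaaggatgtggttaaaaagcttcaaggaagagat
A read of 50 bases from that stretch cannot be placed on 1 of the 3 genes. The window of 60 coding bases in which they differ most is shown next, with the 16 positions that differ between any of the 3 in capitals. It covers coding bases 803 to 862 of Gsdmc2 and Gsdmc3 and 809 to 868 of Gsdmc4.
Gsdmc2: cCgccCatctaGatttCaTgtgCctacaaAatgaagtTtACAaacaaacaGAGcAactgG
Gsdmc3: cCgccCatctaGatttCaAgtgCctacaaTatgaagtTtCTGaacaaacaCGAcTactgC
Gsdmc4: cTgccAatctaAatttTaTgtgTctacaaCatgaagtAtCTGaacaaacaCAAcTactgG
Over the whole coding sequence Gsdmc2 and Gsdmc3 were 97.1% identical, Gsdmc2 and Gsdmc4 93.7%, and Gsdmc3 and Gsdmc4 93.8%. Of all stretches of 50 bases in their transcripts, 48.7% in Gsdmc2, 54.0% in Gsdmc3, 61.0% in Gsdmc4 and 67.9% in Gsdmcl-ps were found in the transcripts of no other gene. The deposited table has a summary line for reads without a unique alignment. Reads that match more than 1 copy may stand in that line, so the level of each copy is uncertain and may be too low. The values below are best read as those of the cluster.

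Gsdmc2 was at 546, 862 and 742 CPM in WT => St2-/- tumours and at 94.5, 112 and 65.4 CPM in St2-/- => St2-/- tumours. Every library with wild-type marrow was above every library with St2-/- marrow by a wide margin. The log2 fold change was -2.98 (SE 0.41, 95% interval -3.88 to -2.08), a 7.90-fold lower level, with an adjusted p of 0.256 by edgeR, 5.24e-10 by DESeq2 and 0.0132 by limma-voom. Gsdmc3 was at 113, 233 and 245 CPM against 24.9, 28.8 and 11.7 CPM, a log2 fold change of -3.17 with an SE of 0.64 (edgeR adjusted p = 0.995, DESeq2 0.00031, limma-voom 0.0256). Gsdmc4 was at 128, 137 and 158 CPM against 20.8, 20.0 and 9.51 CPM, a log2 fold change of -3.07 with an SE of 0.59 (edgeR adjusted p = 0.957, DESeq2 0.000158, limma-voom 0.0160). The pseudogene Gsdmcl-ps was at 17.3, 20.3 and 21.1 CPM against 4.13, 4.19 and 2.47 CPM, a log2 fold change of -2.44 with an SE of 0.47 (edgeR adjusted p = 0.957, DESeq2 0.000158, limma-voom 0.0271). None of the 4 overlapped between the groups, and these are the 4 genes that limma-voom called.

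Smaller differences were measured in the other gasdermins. Gsdmd, the gasdermin cut by inflammatory caspases, was at 317, 153 and 261 CPM with wild-type marrow and 189, 234 and 206 CPM with St2-/- marrow, with overlapping libraries and a log2 fold change of -0.22 (95% interval -0.70 to 0.27). Gsdma was at 0.12 and Dfna5, also named gasdermin E, at -0.08 on the same scale. Gsdmc, the remaining protein-coding copy of the cluster, was under the filter on low counts: WT => St2-/- replicate 2 held 91 of the 100 reads counted over 12 libraries. Gsdmcl1 and Gsdmcl2 had 1 and 3 reads in all. Of the 6 tested genes in the gasdermin list 3 were lower at an unadjusted p under 0.05 and 0 higher, beside 2.31% lower over all tested genes. Their median log2 fold change was -1.60, beside -0.01 over all tested genes. With no filter on low counts 9 members entered and the median was -0.40.

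Of the cluster's genes only Gsdmc3 was found in the RefSeq promoter table used here. The 250 bases before its start, chr15:63878559-63878808 on the minus strand (GRCm38.p6), are shown because the neighbouring copies were lower together, with the letters TATATAA in capitals.
Gsdmc3 promoter: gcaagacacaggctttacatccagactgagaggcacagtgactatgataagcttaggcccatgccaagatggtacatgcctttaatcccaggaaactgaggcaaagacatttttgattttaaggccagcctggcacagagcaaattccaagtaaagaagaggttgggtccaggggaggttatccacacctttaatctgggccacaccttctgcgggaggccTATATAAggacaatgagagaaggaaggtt
The match begins 29 bases before the start. The same letters on either strand occur in 3.04% of the 32851 promoters in that table, and the match is a description of the letters only.

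**Figure D2:**
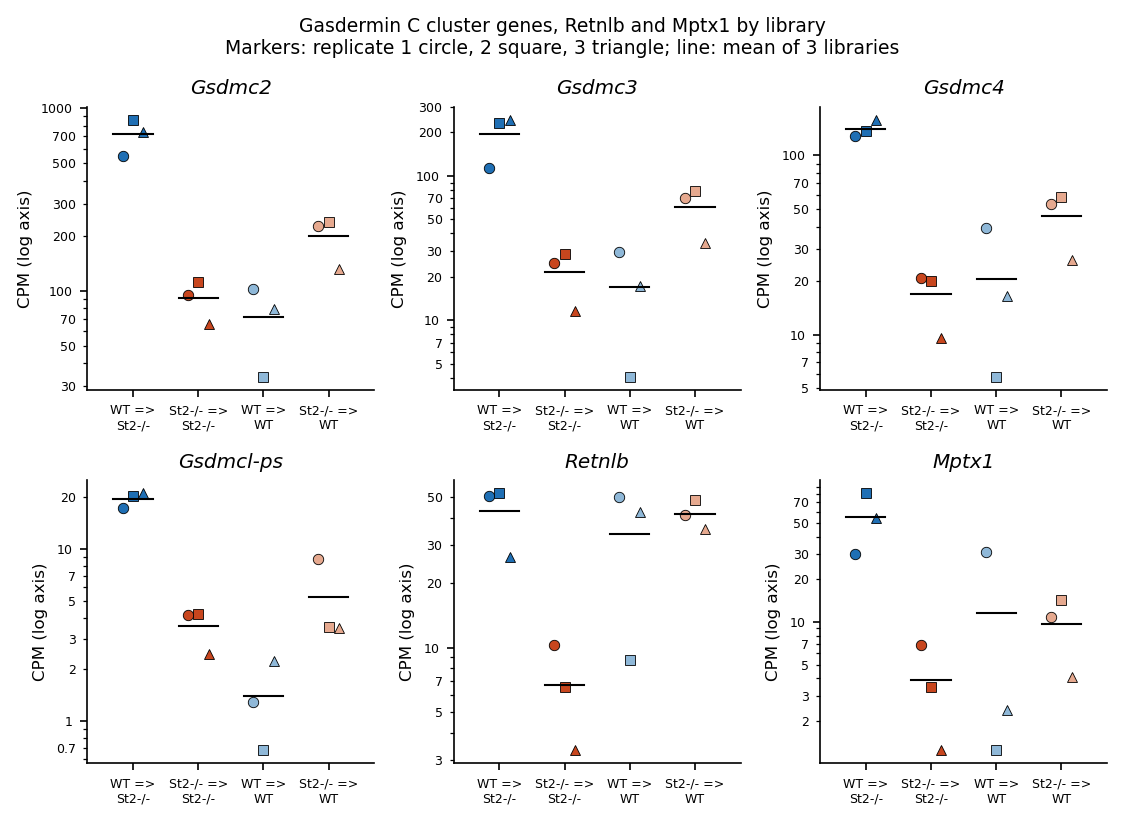
CPM on a log axis of 4 gasdermin C cluster genes, Retnlb and Mptx1 in the 12 libraries, by chimera group. In each panel the 3 WT => St2-/- libraries lie above the 3 St2-/- => St2-/- libraries, and for Gsdmc2 the order of donors is the opposite in WT hosts.

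Further epithelial defence genes were lower with St2-/- marrow. Retnlb (chr16:48816856-48818892), which encodes the goblet cell protein RELM-beta, was at 50.6, 52.2 and 26.3 CPM against 10.3, 6.57 and 3.32 CPM. The lowest library with wild-type marrow was above the highest with St2-/- marrow, and the log2 fold change was -2.67 (SE 0.59, edgeR adjusted p = 0.995, DESeq2 0.00527). Mptx1 (chr1:174330518-174332873), a mucosal pentraxin of the intestinal epithelium, was at 30.2, 80.8 and 54.1 CPM against 6.88, 3.48 and 1.24 CPM, a log2 fold change of -3.83 with an SE of 1.11 (edgeR adjusted p = 0.995, DESeq2 0.0485). Its relative Mptx2 overlapped only between 7.28 CPM in WT => St2-/- replicate 1 and 7.73 CPM in St2-/- => St2-/- replicate 3, with a log2 fold change of -2.0 (SE 0.93).

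Over the goblet cell genes as a list no difference of that size was measured. Of 19 tested goblet and mucus genes only Retnlb was lower at an unadjusted p under 0.05, 0 were higher, and the median was -0.25. By limma-voom the median was -0.55 with 5 genes lower, in a fit where 2091 of 15060 genes had an unadjusted p under 0.05. Muc2, the main gel-forming mucin, was at 1862, 718 and 2940.5 CPM against 2972, 841 and 1001 CPM, with overlapping groups. Among 23 antimicrobial genes Mptx1 was lower and Lcn2 higher. Lcn2, which encodes the iron-sequestering protein lipocalin 2, was at 110, 15.0 and 50.6 CPM against 447, 180 and 128 CPM, a log2 fold change of 2.10 with an SE of 0.89 (adjusted p = 0.995). Reg3b and Reg3g, lectins that act on gut bacteria, had wide and overlapping ranges, 13.6 to 304 CPM against 16.9 to 78.2 CPM for Reg3b and 10.4 to 183 CPM against 11.1 to 90.1 CPM for Reg3g.

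Mast cell protease genes were lower with St2-/- marrow, by amounts that depended on the library. Tpsab1 (chr17:25343245-25345562) is a mast cell tryptase gene that RefSeq marks as a transcribed pseudogene and GENCODE M21 as protein-coding. It was at 63.3, 90.5 and 10.3 CPM against 4.81, 3.24 and 3.40 CPM. Its groups did not overlap, and the log2 fold change was -3.84 (SE 0.90, edgeR adjusted p = 0.995, DESeq2 0.00803). Cma1 (chr14:55941451-55944675), the connective tissue mast cell chymase, was at 23.1, 52.1 and 17.4 CPM against 6.19, 5.78 and 7.19 CPM, a log2 fold change of -2.27 with an SE of 0.52 (edgeR adjusted p = 0.995, DESeq2 0.0127). Mcpt4 (chr14:56059629-56062313), a further chymase of connective tissue mast cells, was at 12.3, 46.3 and 5.27 CPM against 2.45, 2.37 and 3.09 CPM, a log2 fold change of -3.01 with an SE of 0.78 (edgeR adjusted p = 0.995, DESeq2 0.0477). In all 3 genes the St2-/- => St2-/- libraries lay close together and replicate 2 was the highest of the WT => St2-/- libraries.

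The proteases of mucosal mast cells overlapped between the groups. Mcpt1 was at 300, 1189 and 94.3 CPM against 102, 126 and 87.1 CPM, a log2 fold change of -2.33 (SE 0.85), and Mcpt2 at 164, 544 and 49.6 CPM against 56.8, 59.4 and 43.7 CPM, a log2 fold change of -2.24 (SE 0.80). In both genes WT => St2-/- replicate 3 lay within the St2-/- => St2-/- range and replicate 2 far above it. Of the genes that define the lineage, Kit, the receptor for stem cell factor, was at 26.4, 34.0 and 55.2 CPM against 31.9, 26.5 and 30.4 CPM. Ms4a2, the beta chain of the IgE receptor, was at 3.64, 12.3 and 1.58 CPM against 4.36, 6.01 and 5.57 CPM. Both overlapped, with log2 fold changes of -0.38 (SE 0.31) and -0.14 (SE 0.68).

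Of the 19 tested mast cell genes 18 were below 0, 6 were lower at an unadjusted p under 0.05, 3 did not overlap, and the median was -1.21. Over all tested genes 2.31% were lower at that threshold and 4.23% were lower without overlap. The 3 without overlap were Tpsab1, Cma1 and Mcpt4. The list's level, its mean log2 CPM, was 3.96, 5.40 and 3.11 with wild-type marrow and 3.19, 3.42 and 3.16 with St2-/- marrow, so it was above the St2-/- => St2-/- range in 2 of the 3 libraries. Without WT => St2-/- replicate 2 the median was -0.46 and 3 genes were lower at an unadjusted p under 0.05, beside 823 of 15211 genes in either direction. In that setting the log2 fold changes of Tpsab1, Cma1 and Mcpt4 were -3.26, -1.66 and -1.73. By limma-voom with quality weights the list's median was -0.39, with 7 genes above 0 and 4 lower. Over all genes 2091 of 15060 had an unadjusted p under 0.05 in that fit. In a bulk tumour fewer cells of a type and less RNA per cell cannot be told apart, here and for every list below.

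In the lists of other cell types that use ST2 no gene passed an unadjusted p of 0.05 in the fit over all 12 libraries. Of 13 tested genes of group 2 innate lymphoid cells and T helper 2 cells 0 were lower or higher at an unadjusted p under 0.05 and the median was 0.04. Their transcription factor Gata3 was at 6.18, 6.17 and 3.08 CPM against 4.81, 8.07 and 2.94 CPM. Reads of the type 2 cytokines were few: Il13 had 2, 39 and 0 reads in WT => St2-/- and 1, 1 and 0 in St2-/- => St2-/-, Il5 had 1, 11 and 1 against 1, 1 and 1, and Il4 had 1, 7 and 0 against 3, 3 and 1. Most of the group's Il13 and Il5 reads, 39 of 41 and 11 of 13, were in WT => St2-/- replicate 2, the library that was also highest in mast cell proteases and the only one with more than 4 reads of Gsdmc. Of 13 regulatory T cell genes 0 passed in either direction, with a median of 0.16, and their defining factor Foxp3 was at 0.85, 2.17 and 3.60 CPM against 5.35, 1.82 and 4.17 CPM. The regulatory T cell list depended on the setting. Its median was 0.86 with 7 genes higher when the smooth muscle level of each library was a covariate. Over all genes 871 of 15060 passed in that fit. The list's median was 0.93 without WT => St2-/- replicates 2 and 3, and -0.17 with 0 higher without WT => St2-/- replicate 1. With that covariate the median of the innate lymphoid and T helper 2 list was 0.48, with 2 genes higher. The 4 tested genes of the eosinophil and basophil list were all below 0, with 0 past the threshold and a median of -0.54. Mcpt8, a basophil protease gene under the filter on low counts, had 6, 13 and 2 reads against 2, 0 and 2. The eosinophil genes Epx and Prg2 were near 0, with 4 and 12 reads over the WT => St2-/- libraries and 0 and 16 over St2-/- => St2-/-.

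Little difference was measured in the RNA of IL-33 and ST2 pathway genes, a list that holds Il33 itself. Of 19 tested genes 10 were above 0, 0 passed an unadjusted p of 0.05, and the median was 0.00. The groups did not overlap in 2 of them, both higher, beside 4.58% higher without overlap over all tested genes. The adaptor Myd88 was at 64.5, 41.0 and 57.3 CPM against 50.2, 59.98 and 53.2 CPM, and the co-receptor Il1rap at 13.1, 22.96 and 11.3 CPM against 14.1, 9.02 and 9.90 CPM, both with overlapping groups.

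Smooth muscle and nerve genes were lower with St2-/- marrow, through 2 of the WT => St2-/- libraries. Actg2, the enteric smooth muscle actin, was at 37.0, 443 and 206 CPM with wild-type marrow and 41.0, 15.2 and 34.8 CPM with St2-/- marrow. Replicates 2 and 3 of WT => St2-/- were high, and replicate 1 lay within the range of the other group. All 21 tested smooth muscle genes were below 0, 15 of them at an unadjusted p under 0.05, with a median of -1.78. Over all tested genes 2.31% were lower at that threshold. The level of the list was 3.64, 6.32 and 5.38 with wild-type marrow and 4.06, 3.12 and 3.85 with St2-/- marrow, and its summed CPM ranged from 1122 to 5469.5 and from 1029 to 1325. The 19 tested genes of enteric neurons, glia and pacemaker cells were likewise all below 0, with 11 at an unadjusted p under 0.05 and a median of -2.57. With weeks after AOM as a covariate the smooth muscle median was -1.11 with 5 genes lower, and the nerve median -1.61 with 0 lower. Tubb3, the neuronal tubulin, was at 1.10, 19.9 and 5.89 CPM against 2.14, 0.71 and 1.24 CPM. Calb2, the calretinin of enteric neurons, was at 0.51, 14.9 and 2.64 CPM against 0.23, 0 and 0.15 CPM.

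With WT => St2-/- replicates 2 and 3 both left out, the medians of these lists were 0.29 and 0.31. The remaining WT => St2-/- library is then assumed to vary like the other groups. In the same setting the log2 fold changes were -2.59 for Gsdmc2, -2.91 for Retnlb, -4.05 for Tpsab1 and 2.28 for Krt17, and with the smooth muscle level of each library as a covariate they were -2.69, -2.68, -3.84 and 2.05. The gasdermin list had a median of -1.49 without those libraries and -1.60 with the covariate, whereas the mast cell median came to -0.44 and -0.65.

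**Figure D3:**
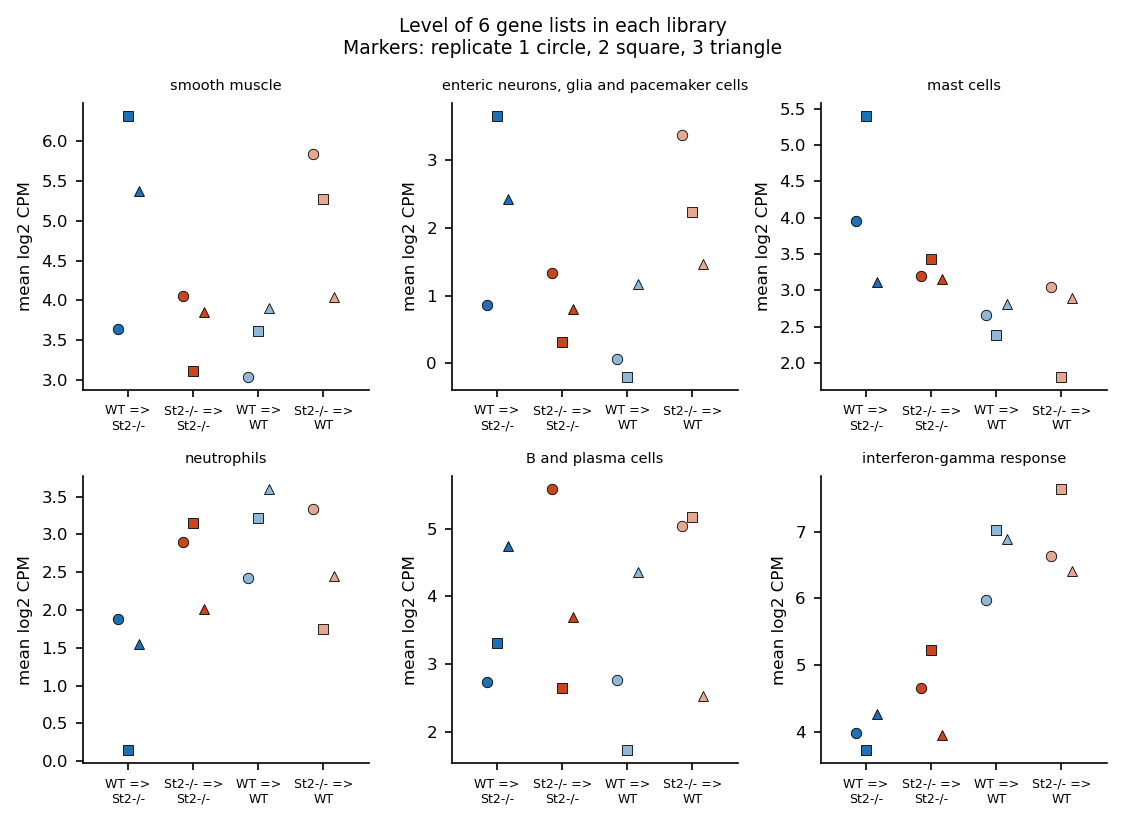
Mean log2 CPM of 6 gene lists in each of the 12 libraries, by chimera group. Among tumours of St2-/- hosts the smooth muscle and nerve lists are high in WT => St2-/- replicates 2 and 3 only, the mast cell list is highest in WT => St2-/- replicate 2, and the 3 St2-/- => St2-/- libraries are above the WT => St2-/- libraries in the neutrophil list.

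In the other direction, the lowest p among higher genes belonged to a keratin. Krt17 (chr11:100256217-100261029), a keratin induced in stressed and wounded epithelia, was at 13.8, 9.74 and 19.2 CPM with wild-type marrow and 100.5, 61.7 and 39.9 CPM with St2-/- marrow. The groups did not overlap, and the log2 fold change was 2.24 (SE 0.40, 95% interval 1.35 to 3.13, edgeR adjusted p = 0.957, DESeq2 0.000158). Krt83, a hair keratin, had a larger log2 fold change of 4.11 (SE 1.12) that came from St2-/- => St2-/- replicate 2, at 37.7 CPM beside 1.53 and 1.78 CPM in the other two. Without that library it was 1.08.

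Several genes known from leukocytes were among those higher with St2-/- marrow, and are given here as single genes. Ccrl2 (chr9:111054486-111057519), a non-signalling receptor that binds chemerin, was at 1.52, 1.39 and 1.58 CPM against 4.89, 5.93 and 3.17 CPM, a log2 fold change of 1.63 with an SE of 0.31 (edgeR adjusted p = 0.957, DESeq2 0.00647). Adam8 (chr7:139978932-139992562), a membrane metalloprotease of leukocytes, was at 31.1, 23.6 and 24.0 CPM against 79.0, 65.6 and 51.9 CPM, a log2 fold change of 1.32 with an SE of 0.30 (edgeR adjusted p = 0.995, DESeq2 0.0391). Both were apart in all libraries, as the rule that named them required. Ccl3, a chemokine of macrophages, was at 1.02, 0.96 and 0.18 CPM against 2.37, 3.88 and 2.55 CPM, with a log2 fold change of 2.02 (SE 0.55). The related chemokine Ccl4 had 2.17 (SE 0.73). The receptor for platelet-activating factor, Ptafr, had a log2 fold change of 1.32 (SE 0.38), the activating Fc receptor Fcgr4 1.08 (SE 0.31) and Cd101, an immunoglobulin-family protein of leukocytes, 1.68 (SE 0.49), each without overlap and each at an edgeR adjusted p of 0.995.

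Neutrophil genes were higher as a list. All 14 tested members were above 0, 8 at an unadjusted p under 0.05, 7 did not overlap, and the median was 1.64. Over all tested genes 1.74% were higher at that threshold and 4.58% were higher without overlap. Clec4e, a myeloid lectin also named Mincle, was at 1.35, 0.52 and 0.97 CPM against 3.82, 4.59 and 2.16 CPM, a log2 fold change of 1.88 (SE 0.56). Csf3r, the receptor for the granulocyte growth factor G-CSF, was at 8.12, 3.30 and 9.93 CPM against 23.1, 24.3 and 11.2 CPM, a log2 fold change of 1.45 (SE 0.55). Both had adjusted p-values of 0.995. S100a8 and S100a9, which encode the abundant neutrophil protein calprotectin, overlapped: S100a8 was at 47.6, 1.22 and 7.47 CPM against 16.7, 37.8 and 12.6 CPM, with a log2 fold change of 0.25 (SE 0.95). The level of the list was 1.89, 0.14 and 1.55 against 2.90, 3.15 and 2.01. It was lowest in WT => St2-/- replicate 2, the library richest in muscle and mast cell genes. Over all settings, the smooth muscle covariate among them, the log2 fold change was 1.37 to 2.23 for Clec4e and 0.86 to 1.77 for Csf3r. What part muscle content had in the list's difference was not tested. Without WT => St2-/- replicate 2 the median was 1.25 and 2 genes passed. Over all genes 823 of 15211 passed there in either direction. The count was 2 too without St2-/- => St2-/- replicate 1 (455 of 15329 over all genes) and without St2-/- => St2-/- replicate 2 (504 of 15341). By limma-voom the median was 1.12 and 2 genes passed, beside 2091 of 15060 over all genes. Without WT => St2-/- replicates 2 and 3 together the median was 1.26.

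**Figure D4:**
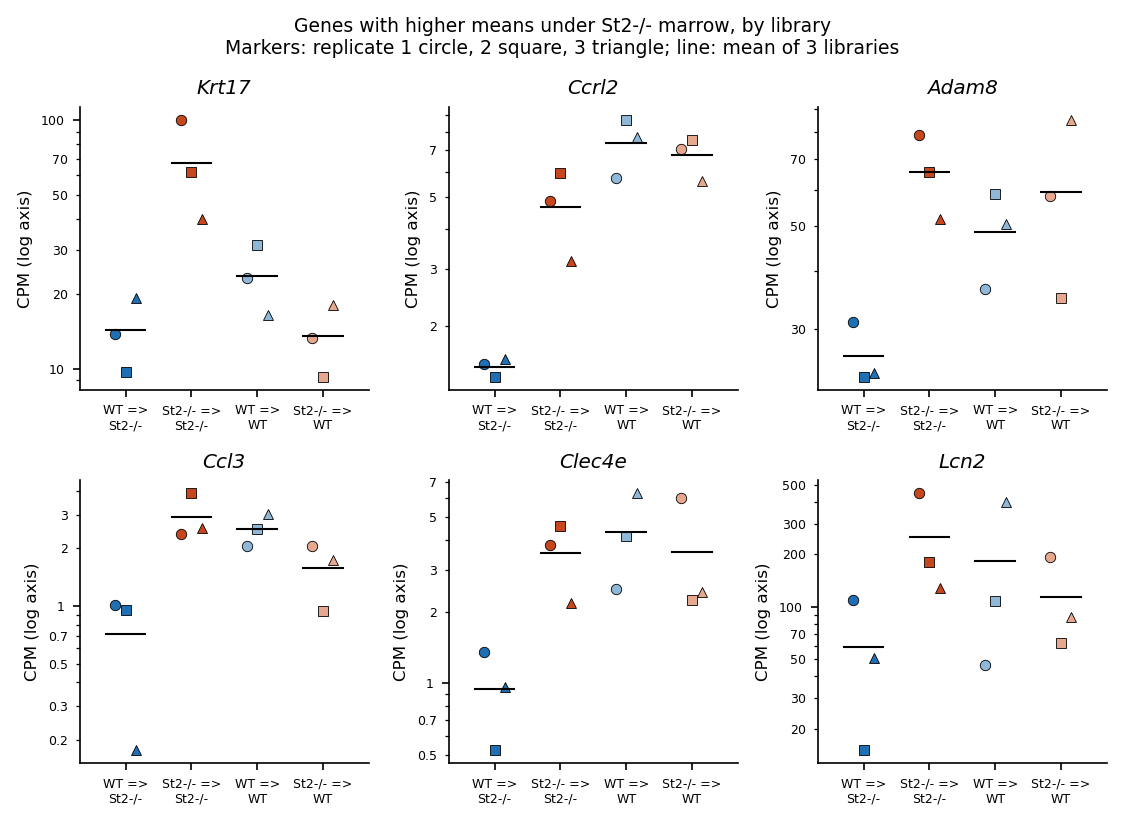
CPM on a log axis of 6 genes with higher means under St2-/- marrow, in the 12 libraries by chimera group. In every panel the St2-/- => St2-/- libraries lie above the WT => St2-/- libraries, and Krt17 is higher in St2-/- => St2-/- than in either group of WT hosts.

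Chemokines and cytokines that attract or activate these cells were partly higher. Of 26 tested inflammatory cytokine and chemokine genes 5 were higher at an unadjusted p under 0.05 and 0 lower, with a median of 0.30. The 5 were Ccl3, Ccl4, Cxcl2, Tnf and Il1b. Over all tested genes 1.74% were higher at that threshold. Without St2-/- => St2-/- replicate 1 the list's median was -0.01 and 4 were higher. In that fit 455 of 15329 genes passed in either direction. Cxcl2, a neutrophil attractant, was at 13.0, 4.35 and 3.16 CPM against 19.4, 23.03 and 11.6 CPM, and Il1b, the inflammasome cytokine, at 19.4, 13.0 and 23.6 CPM against 52.6, 43.0 and 20.2 CPM. Both overlapped through 1 library in each group. Il6 and Cxcl1 had log2 fold changes of -0.93 (SE 0.84) and 0.32 (SE 0.34).

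Of 23 tested macrophage and monocyte genes 19 were above 0, 5 were higher at an unadjusted p under 0.05 and Cd163 alone was lower, with a median of 0.74. Over all tested genes 1.74% were higher and 2.31% lower at that threshold. The complement genes C1qa, C1qb and C1qc, made by tissue macrophages, had log2 fold changes of 0.89, 0.98 and 0.90, and C1qa was at 35.4, 60.3 and 85.3 CPM against 103.5, 115 and 117 CPM. Cd163, the haemoglobin scavenger receptor of resident macrophages, was at 0.51, 1.65 and 2.64 CPM against 0.23, 0.16 and 0.70 CPM, a log2 fold change of -2.11 (SE 0.70). Csf1r, the receptor on which macrophages depend, overlapped at 19.5, 34.3 and 56.7 CPM against 77.0, 44.0 and 70.1 CPM. Il34, a ligand of that receptor, was lower at 24.3, 24.3 and 27.0 CPM against 13.1, 15.8 and 15.7 CPM, a log2 fold change of -0.76 with an SE of 0.17 (edgeR adjusted p = 0.995, DESeq2 0.0178). The macrophage list depended on the setting. Its median was 1.34 with 11 genes higher and 0 lower under the smooth muscle covariate, where 871 of 15060 genes passed over all. The median was 1.60 without WT => St2-/- replicates 2 and 3, a fit that leaves 1 library in that group. With 1 library left out at a time it lay between 0.48 without WT => St2-/- replicate 1, where 0 genes were higher, and 1.24 without WT => St2-/- replicate 3, where 10 were. Over all genes 1329 of 15360 and 552 of 15307 passed in those 2 fits.

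Interferon-gamma response genes were above 0 in 35 of 40 cases, with 6 higher at an unadjusted p under 0.05, 0 lower and a median of 0.58. Over all tested genes 1.74% were higher at that threshold. Much of the list's difference came from St2-/- => St2-/- replicate 2. Cxcl9, a T cell attractant induced by interferon-gamma, was at 0.93, 3.30 and 2.20 CPM with wild-type marrow and at 6.57, 40.0 and 2.47 CPM with St2-/- marrow. Nlrc5, the activator of MHC class I genes, was at 10.3, 10.4 and 16.5 CPM against 28.4, 51.4 and 10.1 CPM, so that St2-/- => St2-/- replicate 3 lay below all WT => St2-/- libraries. Without St2-/- => St2-/- replicate 2 the median was 0.26 and 1 gene passed, and without replicate 3 it was 0.87 and 15 passed. Over all genes 504 of 15341 and 407 of 15343 passed in those fits. The cytokine gene Ifng itself was at or near 0 in all 6 libraries, with a highest value of 0.16 CPM. MHC class I genes had a median of 0.34 (3 of 18 higher), and H2-K1 was at 61.0, 57.5 and 74.4 CPM against 106, 167 and 74.9 CPM. MHC class II genes had a median of 0.87 with 0 of 13 past the unadjusted threshold. Type I interferon response genes had a median of 0.06 with 0 of 31 past it, and -0.37 with 6 lower under the smooth muscle covariate.

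Lymphocyte genes varied widely within the groups. The 21 tested B and plasma cell genes had a median of 0.59, with 0 past the unadjusted threshold in either direction. Cd79a, a signalling chain of the B cell receptor, was at 5.59, 8.43 and 31.6 CPM against 82.5, 5.70 and 13.0 CPM. Without St2-/- => St2-/- replicate 1 the B cell median was -0.78. T cell genes had a median of 0.32 and cytotoxic lymphocyte genes 0.80, each with 0 past the threshold. WT => St2-/- replicate 1 was the poorest in T cell genes: Cd3e, a chain of the T cell receptor complex, was at 0.85, 4.00 and 7.47 CPM against 6.19, 3.56 and 4.72 CPM. With the smooth muscle level as a covariate the medians were 2.31 for B cells, 1.36 for T cells and 2.01 for MHC class II, with 8, 8 and 10 genes higher at an unadjusted p under 0.05. Cytotoxic lymphocyte genes had 1.53 with 3 higher in that fit, and 3.17 without WT => St2-/- replicates 2 and 3. Fitted on the 2 groups alone the cytotoxic median was -0.28. The covariate fit again made 0 calls, and 871 of all genes had an unadjusted p under 0.05 in it.

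Among genes of proliferation and of the tumour epithelium few passed the unadjusted threshold in the fit over all 12 libraries. Of 26 cell cycle genes 23 were above 0 with a median of 0.14, and 0 passed the unadjusted threshold. Mki67, the proliferation antigen, was at 211, 135 and 212 CPM against 203, 179 and 182 CPM. With WT => St2-/- replicates 2 and 3 left out the cell cycle median was -0.06. The 25 Wnt target and stem cell genes had a median of 0.17 with 1 higher. By limma-voom with quality weights their median was 0.58, 23 were above 0 and 11 higher, in a fit where 2091 of 15060 genes had an unadjusted p under 0.05. The 22 absorptive colonocyte genes had a median of -0.44 with 0 past the threshold. Of 16 enteroendocrine genes 13 were below 0, with a median of -0.92, and at an unadjusted p under 0.05 Scg5 was lower and Nts and Isl1 higher. Scg5, which encodes a secretory granule protein, was at 2.62, 11.8 and 10.4 CPM against 2.45, 1.98 and 1.70 CPM, a log2 fold change of -2.01. Pyy, the gene of the hormone peptide YY, was at 73.7, 296 and 396 CPM against 90.9, 161 and 183 CPM, with overlapping groups. Without WT => St2-/- replicate 3 the enteroendocrine median was -0.07, and without replicates 2 and 3 it was -0.02. Nts, which encodes neurotensin, was at 0.51, 0.87 and 0.97 CPM against 0.92, 3.09 and 4.41 CPM. Isl1, a transcription factor of hormone-producing cells, was at 7.02, 7.39 and 23.1 CPM against 48.4, 31.2 and 34.6 CPM. Fibroblast and matrix genes had a median of 0.08 with 0 of 25 past the threshold.

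A few genes had small but even differences and were called by DESeq2 alone. Atp11a, a phospholipid flippase gene, was at 153, 125 and 127 CPM against 204, 207 and 229 CPM, a log2 fold change of 0.66 with an SE of 0.15 (edgeR adjusted p = 0.995, DESeq2 adjusted p = 0.0268). Ctnnal1, which encodes alpha-catulin, was at 47.9, 49.7 and 43.1 CPM against 31.0, 35.5 and 32.3 CPM, a log2 fold change of -0.51 with an SE of 0.11 (DESeq2 adjusted p = 0.0285). In these genes the 3 libraries of a group lay within a narrow band and the bands did not meet. Ccdc9 had a log2 fold change of -0.32 with an SE of 0.09 (DESeq2 adjusted p = 0.0493).

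Outside the lists, the rule on size, level and separation named further genes, each at an edgeR adjusted p of 0.995. Higher were Dach2, a transcriptional regulator, at a log2 fold change of 2.39 (SE 0.63), the clustered protocadherin Pcdhb13 at 1.97 (SE 0.48) and the adhesion molecule Icam5 at 1.55 (SE 0.43). Dach2 was at 0.85, 1.22 and 1.23 CPM against 5.96, 4.51 and 6.88 CPM. Lower were Pcdh17, also a protocadherin, at -1.55 (SE 0.40), Afm, which encodes the vitamin E-binding protein afamin, at -1.49 (SE 0.40), the membrane protein gene Vsig2 at -1.33 (SE 0.37) and the zinc finger gene Tshz2 at -1.26 (SE 0.34). The rule was met by 86 genes higher and 102 lower, and the named genes were drawn from the 12 with the lowest p in each direction.

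Whether donor ST2 made a different change in St2-/- hosts than in WT hosts was tested as the difference of the marrow effects over all 12 libraries; the groups of WT hosts are other animals, so the 2 effects share no library. edgeR called 0 genes (0%), and Gsdmc2 came nearest at an adjusted p of 0.119. Calls by DESeq2 numbered 93, or 0.619%, and by limma-voom 4, or 0.0266%. In WT hosts Gsdmc2 was at 102, 33.7 and 79.3 CPM with wild-type marrow and 226, 239 and 131 CPM with St2-/- marrow, so there it was higher with St2-/- marrow (log2 fold change 1.47, SE 0.39). The difference between hosts was -4.46 on the log2 scale (SE 0.56, unadjusted p = 7.9e-06). The level in WT => St2-/- tumours, 546 CPM or more, was above all other 9 libraries, whose highest was 239 CPM.

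The mast cell genes had a median of 0.01 in WT hosts. The neutrophil median there was -0.39 with 2 of 14 above 0, and the macrophage median -0.55 with 7 of 23 above 0. Differences between hosts at an unadjusted p under 0.05 were seen for 3 of 19 mast cell, 6 of 14 neutrophil and 10 of 23 macrophage genes. Over all tested genes 1144 of 15060 passed that threshold. The smooth muscle list was reversed, with all 21 genes higher with St2-/- marrow in WT hosts and a median of 1.53, where St2-/- => WT replicates 1 and 2 were the muscle-rich libraries. Interferon-gamma response genes stood at a mean log2 CPM of 3.73 to 5.22 in the 6 tumours of St2-/- hosts and 5.98 to 7.64 in the 6 of WT hosts, so the higher values with St2-/- marrow in St2-/- hosts remained below every WT host library. The library names of WT hosts and of St2-/- hosts come from separate number series, so host genotype and series cannot be told apart in levels.

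**Figure D5:**
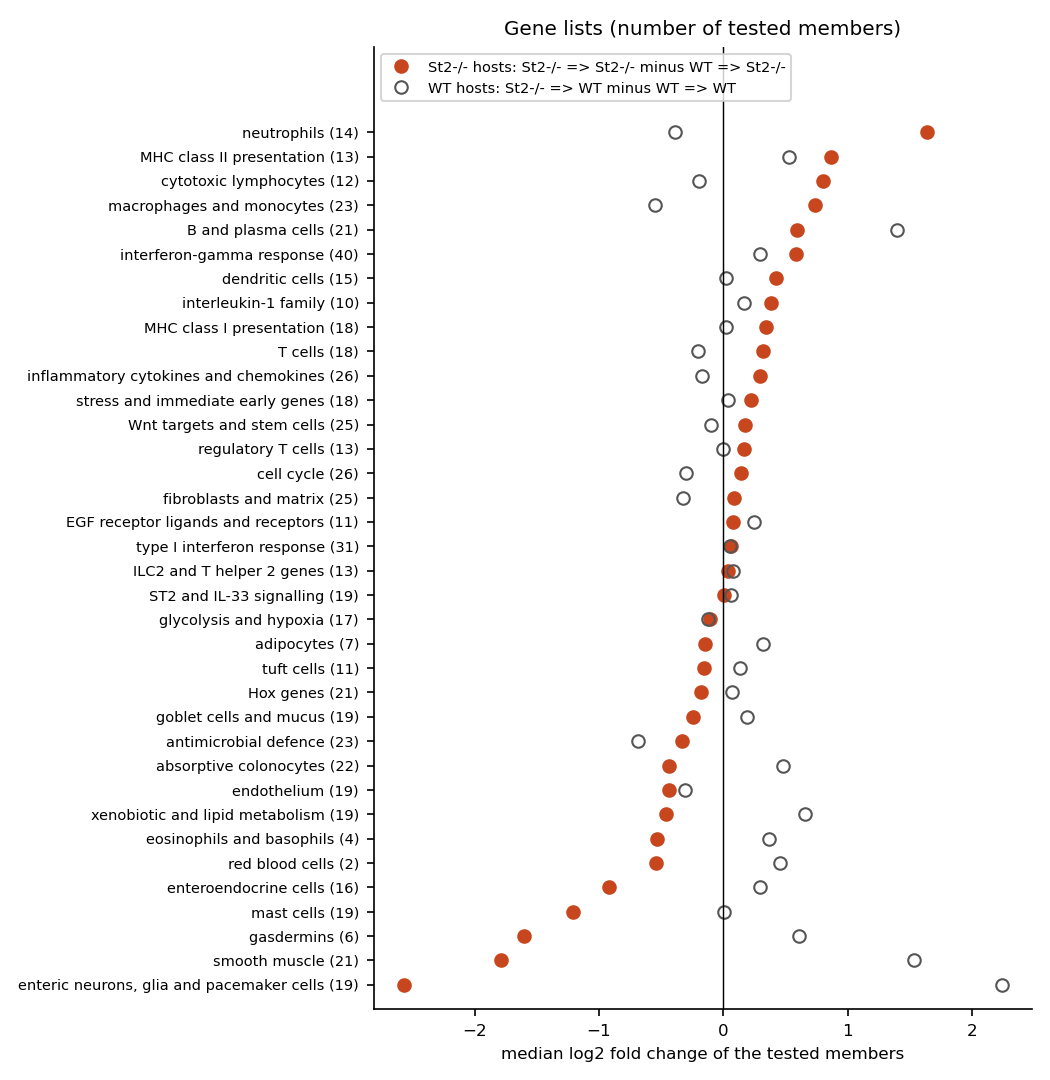
Median log2 fold change of the tested members of 36 gene lists, St2-/- against wild-type marrow, in St2-/- hosts (filled) and in WT hosts (open). Neutrophil genes are highest at 1.64 and nerve genes lowest at -2.57 in St2-/- hosts, and in WT hosts those medians are -0.39 and 2.24.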

How the data were processed

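Colon tumours of 12 chimeric mice were sequenced, 1 tumour per library by the labels. The authors deposited raw read counts per gene and library, named by symbol, and these counts were used as deposited. The submitters' processing notes name TopHat, Bowtie2 and the build GRCm38 (mm10). Versions, counting tool, strand setting and annotation are not given in the sources used here. There were 24062 genes and 5 summary lines, which were left out and took 52.3% to 59.6% of all reads in the 6 libraries; 0 columns lacked a sample. CPM are relative to effective library sizes.

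Genes were kept by edgeR's filterByExpr (minimum count 10, by group; 15060 kept, 9002 not). edgeR 4.0.16 (TMM, robust quasi-likelihood fit, 1 coefficient per group) was fitted to all 12 libraries, so that they share an estimate of spread. The p-values set a group difference against that spread, which includes the libraries of WT hosts. They were adjusted by Benjamini-Hochberg over all tested genes. List levels are means of log2 CPM with a prior count of 2. DESeq2 1.42.0, limma 3.58.1 (voom with quality weights), other filters, covariates, a replicate block and left-out libraries were alternatives. The procedure was tested on simulated data for this comparison. At an adjusted p under 0.05 it recovered 19% of planted 2-fold and 69% of planted 4-fold changes, with 4 false calls among 92. Changes were planted only in genes with a mean of at least 10 reads, and counts were drawn independently for each gene. Shifts that many genes share, such as muscle content, were not simulated, so these rates need not hold for the real libraries. R 4.3.3 and Python 3.11.15 were used. Coordinates and coding sequences are from GENCODE M21 (GRCm38), and 99.4% of symbols were found in RefSeq.

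The comparison and the gene lists were chosen with earlier results of these data known. Named were up to 12 genes in each direction with the smallest p among those whose log2 fold change was 1 or more in size, a mean of 1 CPM in a group and no overlap, leaving out predicted genes, pseudogenes and receptor segments; all genes called by any tool; Il1rl1 and Il33; up to 4 genes of each list described; and up to 4 in each direction for the difference between hosts. Other list members were named for their function, after their values were seen. Replicate numbers did not pair the libraries. Some genes that met the rule are not reported here.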

Additional observations from a re-analysis of the deposited data

Results flagged for a closer look

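In 112 genes (0.744% of those tested) the donor groups did not overlap in either host and differed in opposite directions, and in 44 (0.292%) they did so in the same direction. Genes named for this comparison that are among the former are given with the difference of the marrow effects, St2-/- hosts minus WT hosts, on the log2 scale. In the gasdermin C cluster the difference was -4.46 for Gsdmc2, -5.01 for Gsdmc3 and -4.33 for Gsdmcl-ps, with edgeR adjusted p-values of 0.119, 0.539 and 0.377. For each of the remaining genes the edgeR adjusted p was 0.539. Genes of muscle and nerve had -6.22 for Ckm, -9.38 for Calb2 and -7.93 for Sox10, all at under 1 CPM in every St2-/- => St2-/- and WT => WT library. Tshz2 had -2.33 and Vsig2 -1.91. Genes of macrophages and lysosomes were higher with St2-/- marrow in St2-/- hosts and lower in WT hosts: the complement receptor C3ar1 had 2.40, the Fc receptor Fcgr4 2.10 and the lysosomal protease Lgmn 1.18. Lgmn was at 115, 102 and 108 CPM in WT => St2-/- and 146, 148 and 167 CPM in St2-/- => St2-/-, beside 185, 302 and 210 CPM in WT => WT and 152, 131 and 153 CPM in St2-/- => WT.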

How the results depend on the processing

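Calls differed between tools: 17 genes by DESeq2 and 4 by limma-voom, against 0 by edgeR. edgeR called 1 gene without WT => WT replicate 2 (Gsdmc2, adjusted p = 0.0320), and 1 without WT => St2-/- replicates 2 and 3 (Uaca, which stood at 283 CPM in WT => St2-/- replicate 1 and 51.4 to 86.8 CPM elsewhere). Leaving out each replicate in turn gave 0 to 1 calls. Genes with an unadjusted p under 0.05 numbered 2091 by limma-voom, 364 with weeks after AOM as a covariate, and 407 to 1329 with each replicate left out, the highest without WT => St2-/- replicate 1. The difference between hosts had 93 calls by DESeq2, 4 by limma-voom, 1 without WT => St2-/- replicates 2 and 3, and 0 to 0 with each replicate left out. The cause of these differences was not tested. A replicate block gave 0 calls and 527 genes with an unadjusted p under 0.05; same-numbered libraries deviated from their group means with correlations of -0.25, -0.05 and 0.00, so the numbers do not pair the samples. Of 1646 values of the 72 genes that met the naming rule under 23 alternatives, 1618 kept their direction and side of the threshold, 22 crossed it in the same direction and 6 changed sign: Il1rl1 to 0.18 by limma-voom and 0.15 without WT => St2-/- replicate 2 (-0.79 to 0.15 with each replicate left out), Gsdmd to 0.020 without WT => St2-/- replicate 1 (-0.46 to 0.020), Gfap to 0.27 and Tubb3 to 0.31 without WT => St2-/- replicates 2 and 3, and Tubb3 to 0.37 with the smooth muscle covariate. The median over all genes lay between -0.02 and 0.02 under these alternatives. Of 828 medians of gene lists 58 moved by more than the spread between replicates, and the values of several are given beside the lists. Genes under about 1 CPM rest on few reads.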
